A study of Mus musculus with 12 samples.

Results

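Fast excitatory transmission in hippocampal CA1 pyramidal neurons runs through ionotropic glutamate receptors. AMPA receptors (subunits GluA1 to GluA4, encoded by Gria1, Gria2, Gria3 and Gria4) carry most of the fast current, and NMDA receptors (Grin genes) admit calcium when glutamate coincides with depolarisation. Metabotropic receptors (Grm genes) signal through G proteins. TARPs, encoded by several Cacng genes, and cornichons (Cnih genes) are auxiliary subunits that steer AMPA receptor assembly, surface delivery and gating. c-Fos, which pairs with Jun proteins to form the AP-1 transcription factor, is made within minutes to hours of strong firing and binds largely at enhancers. Which genes of this receptor system lie at c-Fos-bound sites after such firing is the question addressed here.

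The genes examined were 31 members chosen by symbol among RefSeq genes (GRCm38.p6, which has the coordinates of mm10), out of 21523 protein-coding genes on chromosomes 1 to 19 and X. They comprised 4 AMPA receptor subunits, 7 NMDA receptor subunits, the delta receptor gene Grid1, 7 metabotropic receptors, 8 Cacng genes and 4 cornichons. A peak was assigned to a gene when its midpoint lay inside the gene or within 100 kb of it. By that rule 35 of the 3295 deposited peaks belonged to members, and none was shared between members.

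The peaks came from CUT&RUN, in which an antibody tethers a nuclease that cuts out the bound DNA. Mice were C57BL/6, 3 to 4 weeks old, and of genotype CaMK2a-Cre/+; LSL-Sun1-GFP/+ in every group. Cre driven by CaMK2a switches on a GFP-tagged nuclear envelope protein in excitatory neurons, and GFP-positive nuclei of the CA1 region were sorted, 50000 per reaction. The groups were kainic acid with a c-Fos antibody, kainic acid with rabbit IgG, PBS with the c-Fos antibody and PBS with rabbit IgG, with 3 replicates in each. Kainic acid, an agonist of kainate and AMPA receptors, or PBS was given 2 to 3 h before. The deposited list holds only positions of replicated c-Fos peaks against IgG after kainic acid. It carries no height, score or value per replicate, so read depth is unknown, no spread between replicates can be given, and nothing below was tested across samples. The list holds no expression, so the sorted nuclei were not checked against cell type markers. PBS peaks were not analysed here, so none of the peaks below is shown to depend on kainic acid. Intervals on shares are exact (Clopper-Pearson, 95%) and cover counting error over genes only.

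Peaks at glutamate receptor genes were concentrated in the pore-forming subunit genes Gria1, Grin2a and Grin2b. These 3 genes held 16 of the 25 peaks that lay inside members, or 64.0%. Another 7 members held 1 or 2 peaks inside, 3 had peaks only outside the gene, and 18 had none within 100 kb. In all, 13 of 31 members (41.9%, interval 24.5 to 60.9) had a peak in the gene or within 100 kb, whereas 21.8% of all protein-coding genes did. The median number of peaks was 0 for members and 0 for all protein-coding genes. The mean was 1.13 peaks for members and 0.304 for all protein-coding genes.

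Gene length has to be set beside these counts, because a long gene offers more room for a peak. The median member was 91.4 kb long, against 17.4 kb over all protein-coding genes. Each member was therefore placed beside all other protein-coding genes of 0.5 to 2 times its length, called genes of like length below. Averaged over the 31 members, 33.4% of genes of like length had a peak by the same rule. That value lies inside the interval of the members' share. A peak inside the gene was found in 10 of 31 members (32.3%, interval 16.7 to 51.4), against 5.52% of all protein-coding genes. The shares among genes of like length add up to 5.65 genes, or 18.2%, which also lies inside the interval. The 25 inside peaks compare with 10.7 when each member is given the mean of its like-length genes. Gria1, Grin2a and Grin2b were singled out after the values were seen. The other 28 members held 9 inside peaks, and their like-length means add up to 8.49. Of these 28, 7 had a peak inside, where the like-length shares add up to 4.46 genes. The members with most inside peaks were left out here, whereas the genes of like length kept their highest counts. Both comparisons are therefore uneven.

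**Figure D1:**
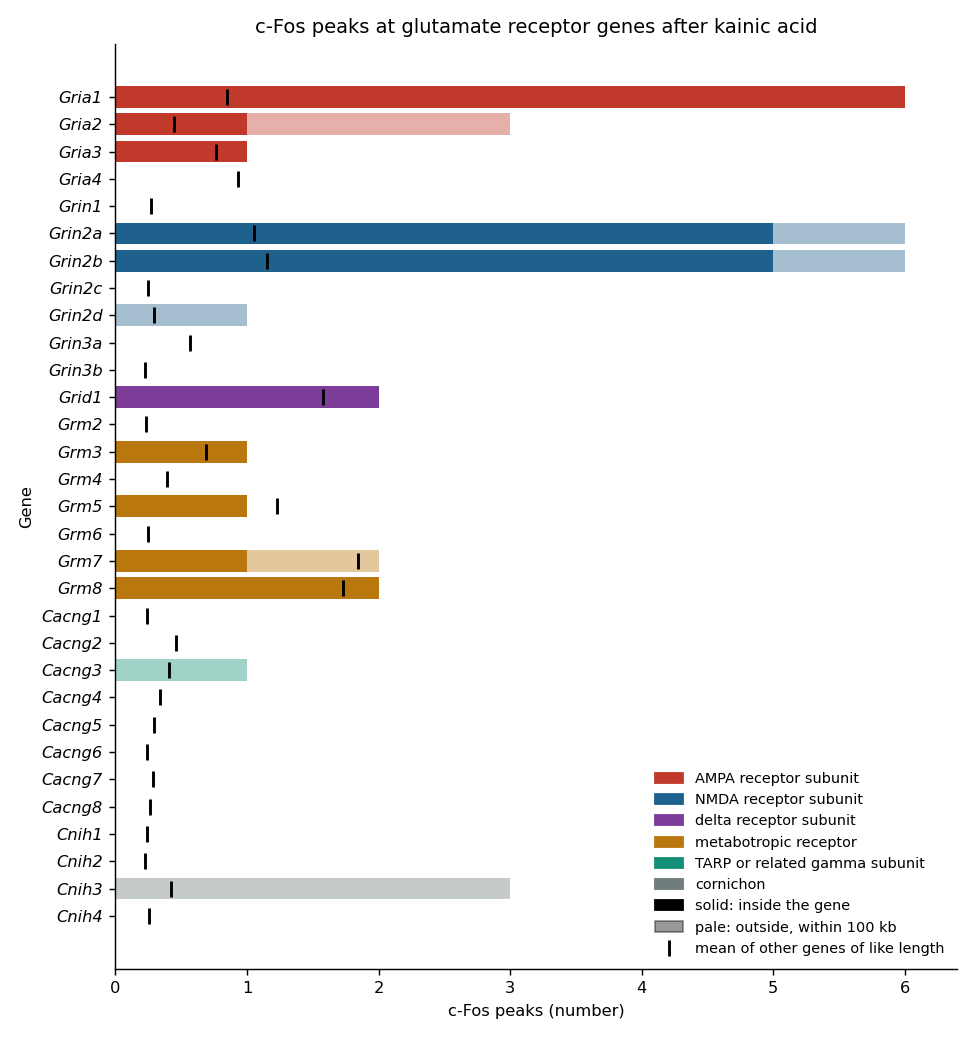
Number of c-Fos peaks (horizontal axis) at each of the 31 member genes (rows), coloured by class; solid bars count peaks inside the gene, pale bars peaks outside it but within 100 kb, and the black tick is the mean over other protein-coding genes of 0.5 to 2 times the gene's length. Gria1, Grin2a and Grin2b reach 6 peaks each, and 18 members have none.

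Among the AMPA receptor genes, Gria1 stood out. It encodes GluA1, the subunit whose phosphorylation and synaptic delivery have been studied most in CA1 long-term potentiation. All 6 of its peaks lay inside the gene (chr11:57011571-57330244, 319 kb). They were at chr11:57062349-57063419, chr11:57099093-57100740, chr11:57112667-57117702, chr11:57132141-57133861, chr11:57139520-57141223 and chr11:57200553-57201732. The midpoints spanned 138 kb, or 43.4% of the gene, and began 51.3 kb from its lower-coordinate end. The third of them was 5036 bp wide, wider than 99.5% of the peaks in the list. The nearest other protein-coding gene to any of these peaks, Fam114a2, was at least 282 kb away. Of 1194 genes of like length, 11 (0.921%) had as many peaks inside.

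The other AMPA receptor genes carried less. In all, 3 of the 4 AMPA receptor genes had a peak in the gene or within 100 kb. For this class the shares among genes of like length add up to 1.74 genes. Gria2 encodes GluA2, the subunit that makes AMPA receptors nearly impermeable to calcium, and had 1 peak inside (chr3:80697050-80698396) and 2 on its lower-coordinate side, 49.9 and 72.8 kb from the gene. The gene is on the minus strand in the promoter table, so all 3 lay toward or beyond its transcript end, and the inside peak was 105 kb from the listed transcript start. No other protein-coding gene was nearer to these peaks than Gria2. Between 100 and 200 kb from the gene lay 3 more peaks, which brought its total to 6. Of the genes of like length to Gria2, 14.8% had a peak inside. Gria3, which encodes GluA3, lies on the X chromosome, where the list held 21 peaks in all, and had 1 of them (chrX:41572629-41573845), 172 kb from its lower-coordinate end. Of the genes of like length to Gria3, 30.8% had a peak inside. Gria4, which encodes GluA4, held no peak over 378 kb, and its nearest peak was 108 kb away, just beyond the window. Of the genes of like length to Gria4, 49.9% had a peak by the same rule.

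The NMDA receptor genes divided between Grin2a and Grin2b and the rest. Of the 7 genes, 3 had a peak in the gene or within 100 kb. For this class the shares among genes of like length add up to 2.26 genes. Grin2a encodes GluN2A and Grin2b encodes GluN2B, the glutamate-binding subunits that largely set channel kinetics in forebrain neurons. During the first postnatal weeks GluN2A joins and partly replaces GluN2B at forebrain synapses. Each had 5 peaks inside and 1 outside within 100 kb.

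Within Grin2a (chr16:9567901-9996083, 428 kb) the peaks were at chr16:9713191-9714187, chr16:9800195-9803043, chr16:9823628-9826338, chr16:9851189-9852427 and chr16:9984602-9985839. The midpoints of the middle 3 were 23.4 and 26.8 kb apart, and the last was 10.9 kb from the higher-coordinate end. The outside peak was 84.0 kb beyond that end, and Rpl39l was 90.1 kb from it on the opposite side. Within Grin2b (chr6:135713221-136173615, 460 kb) they were at chr6:135814296-135817144, chr6:135817812-135819456, chr6:135898468-135901448, chr6:135907114-135908856 and chr6:135950445-135952846. These formed 2 close pairs and a single peak. The first pair was separated by 667 bp and the second by 5665 bp, and whether such neighbours belong to 1 broader enriched region was not tested. The peak outside Grin2b lay 70.7 kb below its lower-coordinate end, and 4 further peaks were found between 100 and 200 kb from the gene.

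The number of peaks per Mb inside a gene was also set beside that in the 1 Mb on either side of it, for the 10 members with a peak inside. It was 18.8 inside Gria1 and 2.00 around it, 11.7 inside Grin2a and 1.50 around it, and 10.9 inside Grin2b and 3.50 around it. Among the other members it was 8.14 and 5.50 for Gria2, 3.60 and 0.500 for Gria3, 2.62 and 0 for Grid1, and 4.16 and 0 for Grm3. It was 1.81 and 0.500 for Grm5, 2.33 and 1.00 for Grm8 and, the other way round, 1.08 and 2.50 for Grm7. These genes were taken because they hold a peak, so the direction in 9 of the 10 is a description and supports nothing. As many inside peaks were found in 17 of 812 genes of like length for Grin2a (2.09%) and in 18 of 726 for Grin2b (2.48%). Over the whole list, 32 protein-coding genes (0.149%) had 5 or more peaks inside, and Gria1, Grin2a and Grin2b were 3 of them. They were not at the top of that list, whose highest count was 26.

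Among the other NMDA receptor genes, Grin1, which encodes the obligatory GluN1 subunit, had no peak within 100 kb. Its nearest peak was 2029 kb away, the greatest distance of any member. Grin2c (407 kb), Grin3a (756 kb) and Grin3b (116 kb), which encode GluN2C, GluN3A and GluN3B, had none either. Of these only Grin3a is long (184 kb), and 37.0% of genes of its length had a peak. Grin2d, which encodes GluN2D, had 1 peak 89.3 kb away, and that peak lay inside another gene, Sult2b1. Grid1 encodes the delta receptor GluD1, which acts with cerebellins and neurexins at synaptic contacts. It held 2 peaks in 763 kb (chr14:34945498-34946392 and chr14:35121696-35123061), and 25.3% of genes of like length had 2 or more inside.

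**Figure D2:**
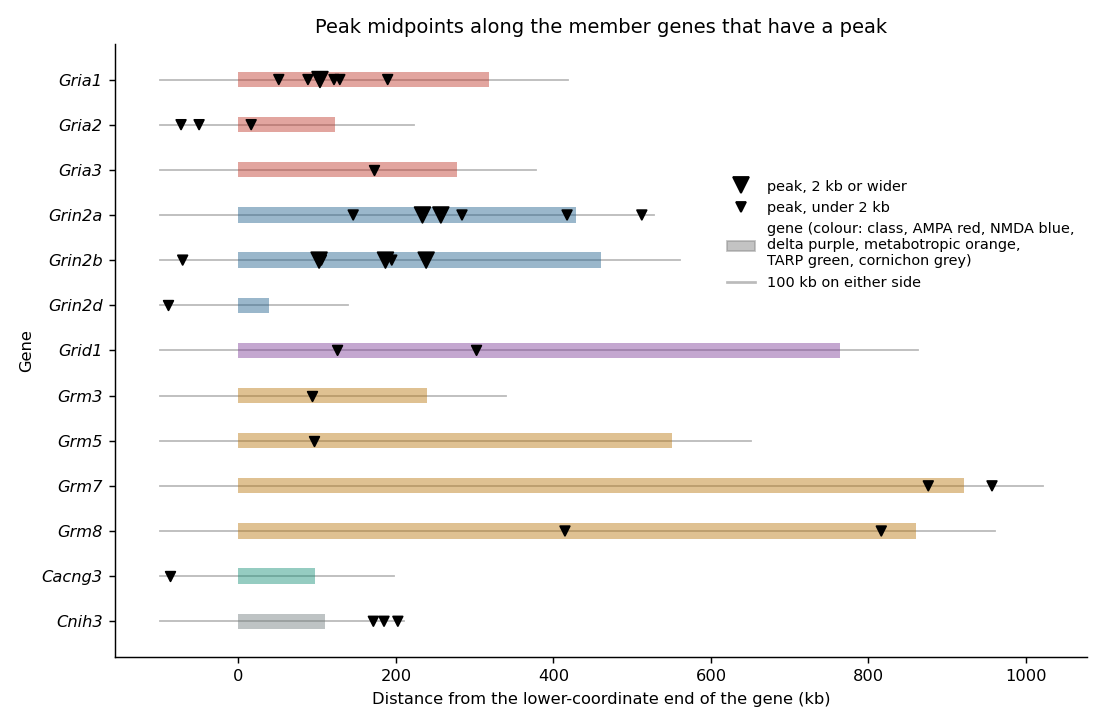
Midpoints of the peaks (triangles) along the 13 member genes that had a peak in the gene or within 100 kb, as distance in kb from the lower-coordinate end of each gene; bars are genes, thin lines the 100 kb on either side, and large triangles peaks of 2 kb or wider. Peaks crowd within Gria1, Grin2a and Grin2b, whereas those at Grin2d, Cacng3 and Cnih3 all lie outside the gene.

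**Figure D3:**
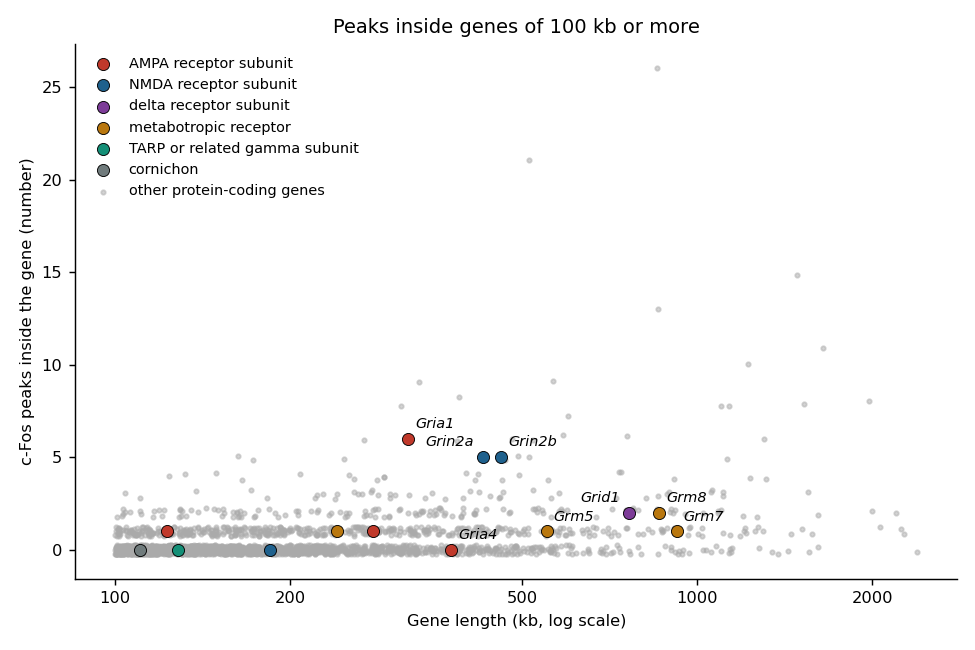
Number of c-Fos peaks inside a gene against gene length (log scale) for protein-coding genes of 100 kb or more; coloured points are the 14 members of that length and grey points the other genes, shifted at random by up to 0.25 vertically so that they can be told apart. Gria1 (6), Grin2a and Grin2b (5 each) lie above most genes of their length, and the other members lie among them.

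Metabotropic receptor genes had at most 2 peaks inside. Peaks were found at 4 of 7, where the shares among genes of like length add up to 2.96 genes. The 4 were the long genes Grm3, Grm5, Grm7 and Grm8, with 1, 1, 1 and 2 inside. Their genes of like length had means of 0.413, 0.969, 1.59 and 1.47 inside. Grm5 encodes mGluR5, the Gq-coupled receptor that drives phospholipase C and long-term depression in CA1. It had 1 peak in 551 kb (chr7:87678881-87680268), 95.6 kb from its lower-coordinate end, and 47.3% of genes of like length had at least 1 inside. Grm3, encoding a Gi-coupled receptor found on neurons and astrocytes, had 1 peak (chr5:9578336-9580241) 146 kb from its listed transcript start. Grm7 and Grm8 encode group III receptors, found mainly on presynaptic terminals. The inside peak of Grm7 (chr6:111520859-111521682, 824 bp) lay 876 kb from the nearest listed transcript start and 46.0 kb from the opposite end of the gene. A further peak lay 34.9 kb beyond that end. Grm8 had 2 peaks 402 kb apart (chr6:27689088-27690448 and chr6:28090660-28092099). The second was 35.0 kb from a listed transcript start, the closest of any peak to the start of a member with a promoter entry. Grm7 and Grm8 were the longest members, at 922 and 860 kb, and 59.8% and 57.8% of genes of like length had a peak inside. Grm2, Grm4 and Grm6 had none within 100 kb, and their nearest peaks were 355, 791 and 1503 kb away.

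No gene of the auxiliary subunits held a peak inside. Few of their genes of like length did either, from 0.979% for Cnih2 to 15.3% for Cacng2. Of the 8 Cacng genes, 1 had a peak within 100 kb, where the shares among genes of like length add up to 1.90 genes. The peak was 86.9 kb from Cacng3, which encodes the TARP gamma-3, and lay inside Prkcb, a protein kinase C gene. Cacng2, encoding stargazin (gamma-2), had its nearest peak 1191 kb away, and Cacng8, encoding gamma-8, the TARP most abundant in hippocampus, 171 kb away. Cacng6, Cacng7 and Cacng8 are neighbours on chromosome 7, and Cacng1, Cacng4 and Cacng5 on chromosome 11. Their distances are therefore not independent, and ran from 152 to 219 kb in the first cluster and from 1139 to 1310 kb in the second. Cacng1 and Cacng6 encode gamma-1, a calcium channel subunit of skeletal muscle, and gamma-6, and are not regarded as TARPs.

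Among the cornichons, Cnih2, which encodes the AMPA receptor auxiliary subunit CNIH-2 of hippocampal neurons, had its nearest peak 725 kb away. Cnih3, its close homologue, had 3 peaks on its higher-coordinate side, 61.2, 74.8 and 92.3 kb from the gene. Each of these was nearer to another protein-coding gene, 2 to Ccdc121 (10.4 and 23.9 kb) and the third to Dnah14 (23.7 kb). Thus 1 of the 4 cornichons had a peak within 100 kb, where the shares among genes of like length add up to 0.864 genes. Cnih1 and Cnih4, cornichons known for general cargo export from the endoplasmic reticulum, had their nearest peaks 111 and 353 kb away. In all, 5 of the 10 peaks outside members were nearer to another protein-coding gene, namely those at Grin2d, Cacng3 and Cnih3. With each peak given only to the nearest protein-coding gene, 10 members had a peak, the same number as had a peak inside.

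Members with peaks were mostly the long ones. The 13 members with a peak had a median length of 319 kb and the 18 without one 20.4 kb, and Gria4, Grin3a and Cacng2 were the members over 100 kb without a peak. Of the 14 members of 100 kb or more, 11 (78.6%, interval 49.2 to 95.3) had a peak in the gene or within 100 kb. The share over all protein-coding genes of that length was 42.6%. Of those 14, 10 had a peak inside (71.4%, interval 41.9 to 91.6), against 28.4% of all protein-coding genes of that length. Both shares over all genes lie below the intervals. The like-length shares for these 14 add up to 6.73 genes with a peak in the gene or within 100 kb. For a peak inside they add up to 5.00 genes, or 35.7%. Of the 17 shorter members, 2 (11.8%, interval 1.46 to 36.4) had a peak within 100 kb, against 19.2% of all shorter protein-coding genes. That share lies inside the interval. None of the 17 had a peak inside. The like-length shares for these 17 add up to 3.62 genes with a peak in the gene or within 100 kb. For a peak inside they add up to 0.650 genes. The limit of 100 kb on gene length was chosen after the values were seen, so the intervals on either side of it are descriptions only. Without Gria3, on the autosomes alone, 40.0% of members had a peak against 34.2% of genes of like length.

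The count was also taken with other windows around the gene. With 10 kb on either side 10 members had a peak, against 7.55% of all protein-coding genes and 20.2% of genes of like length. With 50 kb the number was again 10, against 14% of all and 26.0% of genes of like length. Since a peak inside a gene counts in every window, these are the 10 members with a peak inside, and none gained its first peak between the gene and 50 kb. With 200 kb the number was 18, against 34.4% of all and 45.4% of genes of like length. Just within the main window of 100 kb, the nearest peaks were at 86.9 kb (Cacng3) and 89.3 kb (Grin2d), and just beyond it at 108 kb (Gria4), 111 kb (Cnih1) and 116 kb (Grin3b). Over the 18 members without a peak the nearest distance had a median of 566 kb.

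**Figure D4:**
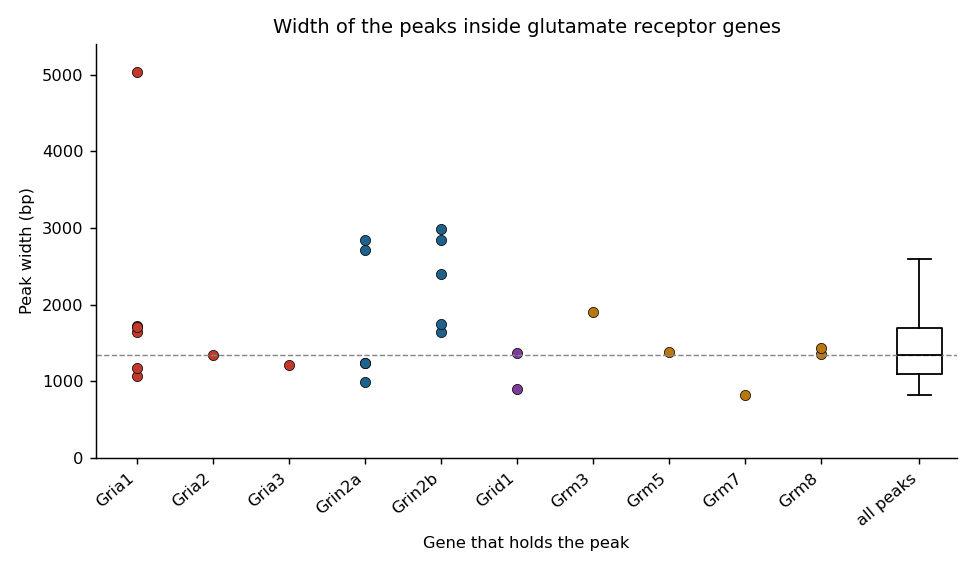
Width in bp of each of the 25 peaks inside member genes (points, by gene) beside all 3294 peaks on the chromosomes used (box, quartiles and median; whiskers, 5th and 95th percentiles; dashed line, median of all peaks). Peaks of 2 kb or wider are found in Gria1, Grin2a and Grin2b.

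Peak width, which the choice of members did not use, was also set beside that of other peaks. The 25 inside peaks had a median width of 1440 bp (quartiles 1238 and 1906 bp), against 1376.5 bp for the 1718 peaks inside any protein-coding gene. Of the 25, 6 were 2000 bp or wider (24.0%, interval 9.36 to 45.1), against 276 of those 1718 peaks. Among all peaks the share was 14.4%, which lies inside the interval. These 6 were all in Gria1 (1), Grin2a (2) and Grin2b (3). The peaks in Grin2b were 1645 to 2981 bp wide, with a median of 2402 bp, so each exceeded the median of the list, 1341.5 bp. In Grin2a they were 997 to 2849 bp wide (median 1239 bp), and in Gria1 1071 to 5036 bp (median 1676 bp). The 9 peaks inside the other members were 824 to 1906 bp wide. The list has no score, so how strongly these sites were bound cannot be read from it.

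No peak lay at a listed start of a member. RefSeq promoter entries (GRCm38.p6, 250 bases before to 50 after a transcript start) were available for 21 members, 25 entries in all, and none was overlapped by a peak. Over 21045 such entries of protein-coding genes, 1.12% were. Gria1, Gria3, Grin2a, Grin2b, Grin3a, Grid1, Grm4, Grm5, Cacng1 and Cacng4 are the members without an entry in the table. The pattern TGANTCA, a looser form of the AP-1 core motif with any base in the middle, was searched on the strand of the gene. This covers both strands because the pattern is its own reverse complement. It was present in 3 of the 25 entries, against 7.04% of all entries. Among the 236 entries overlapped by a peak anywhere in the genome, 40 (16.9%) held it. The cyclic AMP response element TGACGTCA, searched in the same way, was in 0 of the 25, against 2.26% of all. The 3 entries with this looser AP-1 pattern are shown because they hold its letters at a member's transcript start while the list places no peak on them. Each runs 5′ to 3′ on the strand of the gene, with the motif in capitals.
Cacng5, chr11:107915006-107915305, minus strand: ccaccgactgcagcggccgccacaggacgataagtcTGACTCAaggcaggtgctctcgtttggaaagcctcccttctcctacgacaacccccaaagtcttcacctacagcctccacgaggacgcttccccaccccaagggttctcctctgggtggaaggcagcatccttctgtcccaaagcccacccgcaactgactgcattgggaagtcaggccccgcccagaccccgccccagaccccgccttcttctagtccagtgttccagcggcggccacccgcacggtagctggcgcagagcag
Grm8, chr6:28135097-28135396, minus strand: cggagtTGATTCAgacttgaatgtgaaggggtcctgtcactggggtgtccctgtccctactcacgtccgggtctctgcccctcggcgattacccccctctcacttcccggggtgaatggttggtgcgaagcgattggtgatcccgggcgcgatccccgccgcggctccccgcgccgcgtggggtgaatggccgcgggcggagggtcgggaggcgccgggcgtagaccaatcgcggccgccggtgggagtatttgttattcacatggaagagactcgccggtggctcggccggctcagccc
Grin3b, chr10:79970474-79970773, plus strand: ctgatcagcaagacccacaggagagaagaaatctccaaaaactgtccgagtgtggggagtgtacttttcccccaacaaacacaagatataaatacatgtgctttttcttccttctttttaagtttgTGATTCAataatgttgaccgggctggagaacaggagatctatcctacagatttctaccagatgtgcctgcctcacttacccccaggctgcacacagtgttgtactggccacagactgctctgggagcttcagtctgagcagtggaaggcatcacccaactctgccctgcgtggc
The match in Cacng5 is TGACTCA, the form AP-1 is best known to bind, 214 bases before the transcript start, and the peak nearest to Cacng5 was 1310 kb from the gene. Those in Grm8 and Grin3b are TGATTCA, 244 and 124 bases before the start. A match is a description of letters and not a binding site. Sequence of the peaks themselves was not used here.

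Other genes of the glutamate system were counted from a fixed list, of which 56 are reported. Of these, 20 (35.7%) had a peak in the gene or within 100 kb, against a mean of 28.9% among genes of like length, and 8 had a peak inside, where the like-length shares add up to 7.03 genes. None of the 56 had more than 2 inside. Among 20 AMPA receptor partners 6 (30.0%) had a peak, against 28.9% of genes of like length. The pentraxin genes Nptx2 and Nptxr, whose products cluster AMPA receptors, had 3 and 2, all outside the gene. Nptx1, a further pentraxin gene, Syndig1, which encodes a synapse differentiation factor, Grip1 and Pick1 had 1 each. Grip1 and Pick1, named after their values were seen, encode scaffolds that bind AMPA receptor subunits, and the peak at Grip1 was the 1 peak inside a gene of this class. Among 9 partners of NMDA and delta receptors 4 had a peak (44.4%, against 28.4% of genes of like length), with 2 inside Nrxn3, a very long neurexin gene, 2 near Srr, which makes the co-agonist D-serine, and 1 each near Cbln2 and Cbln4, which encode cerebellins. Among 17 genes of metabotropic receptor signalling 7 had a peak (41.2%, against 32.1%), with 3 at Gnao1, which encodes a G protein alpha subunit, 2 inside Itpr1, the inositol trisphosphate receptor, 1 at Homer1 and 1 at Homer2, which encode scaffolds that tie mGluR5 to Shank. Among 10 genes of glutamate supply and clearance 3 had a peak (30.0%, against 24.0%), 1 each at Slc1a1, Slc17a7 and Slc1a2, which encode glutamate transporters.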

How the data were processed

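CUT&RUN was done on 12 samples in 4 groups of 3, grouped by their titles. The authors deposited 1 file, a list of 3 columns (chromosome, start and end) attached to 1 sample of the kainic acid c-Fos group. By its name it holds replicated peaks of c-Fos against IgG, and it was treated as 1 list of that group. The submitters' processing notes name SEACR 1.1, a peak caller, with bedtools 2.27.1, Bowtie2 2.2.9 and Trimmomatic 0.36, and the builds mm10 and sacCer3. The sources used here do not give the order of steps, the threshold or the way replicates were combined, so peaks weaker than that threshold are missing from every count.

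Of 3295 peaks, the 3294 on 20 chromosomes were used, and positions are given 1-based on mm10. Genes were the protein-coding entries of the RefSeq table, without those starting below 3000000, whose coordinates appear to belong to unplaced scaffolds. Strand came from the promoter table where it has an entry, and exons were not used here. Members, lists and class divisions were chosen with earlier results of these data known. All 31 members were to be named. For each peak outside a member gene, the nearest protein-coding gene was to be named where it was not the member. Up to 4 genes with most peaks per class of the fixed list were to be named too. A gene of that list is not reported here. Counting was tested on simulated peaks. Shares carry exact binomial intervals; no test was run. Python 3.11.15, pandas 2.3.3, numpy 2.4.6, scipy 1.17.1 and matplotlib 3.10.9 were used.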

Additional observations from a re-analysis of the deposited data

How the results depend on the processing

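No paired analysis was possible because the file used here holds pooled peak positions, and for the same reason no replicate could be left out. The 10 alternatives were the wider 1647 peaks, peaks merged across gaps of up to 500 bp (3267 peaks), assignment by any overlap, leaving out the 18 peaks over 5 kb, 10, 50 and 200 kb around the gene, the nearest gene only, a narrower band of like length, and autosomes only. The number of members with a peak ranged from 10 to 18, and the number with a peak inside from 8 to 10. The members' share was 1.26 times that of genes of like length, and 1.17 to 1.79 times under the 10 alternatives. The interval on the main ratio ran from 0.735 to 1.82 and so includes 1. The alternatives recount the same genes and the same peak list, so they are not independent of each other. Among the wider peaks, 11 of the 13 members still had a peak; Gria3 and Cacng3 did not, and Grin2a kept 3 of 6, Gria2 1 of 3, and Grid1 and Grm7 1 of 2 each. Gria1 had 4 to 6 peaks under the 8 alternatives that give counts per gene. Peaks at Grin2d, Cacng3 and Cnih3 were lost with 10 kb, 50 kb or the nearest gene only. Peaks below the authors' threshold, and read depth, limit every absence reported.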
